A study of Mus musculus with 6 samples.

Results

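The genes described here move zinc, iron and copper across the membranes of mouse embryonic stem (ES) cells, or bind these metals inside the cell. They comprise the Slc39a (ZIP) and Slc30a (ZnT) zinc transporter families, the iron transporters Slc11a1, Slc11a2 and Slc40a1, the copper transporters Slc31a1, Slc31a2, Atp7a and Atp7b, the transferrin receptor gene Tfrc, the metallothioneins Mt1 to Mt4 and their regulator Mtf1. Members were matched by gene symbol, under a rule set with earlier results of these data known. Of the 18193 genes on the array with a single symbol, 37 matched. They carry 68 probe sets, and the probe set of highest mean over the 6 arrays gives the value of a gene unless another is named.

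RNA was measured on Affymetrix arrays in E14TG2a, 1 established mouse ES cell line, in 2 groups of 3 samples. The differentiating samples had spent 3 days without leukaemia inhibitory factor (LIF), the cytokine that holds mouse ES cells in self-renewal, and were sorted as positive for the surface glycoprotein 5T4. The undifferentiated samples were kept in 1000 units of LIF per ml and were sorted as negative for 5T4. Both groups grew on gelatin in a DMEM medium, with foetal calf serum by the methods and with that or serum replacement by the labels, and were trypsinised and labelled with the anti-5T4 antibody 9A7 for sorting. LIF withdrawal and the sort go together and cannot be told apart, and whether replicates are separate cultures is not stated, so p-values measure the spread between these samples, which may be technical. In such bulk samples a lower signal can come from fewer cells of a type or from less RNA per cell, and these cannot be told apart.

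All 6 arrays read high for Pou5f1, Sox2 and Nanog, but not for every ES cell marker. The mean RMA value (log2 scale) of 9 ES cell markers lay between 9.44 and 10.39 in differentiating arrays, against 11.17 to 11.65 in undifferentiated arrays. By the test 3 of the 9 were lower, Klf4, Pou5f1 and Sox2. This count was 0 without differentiating replicate 2 or 3 or undifferentiated replicate 3. It was 1 without undifferentiated replicate 1 or where a log2 fold change of at least 1 was also asked. It was 5 with the mean of all probe sets of a gene or with any probe set counted. It was 6 with dim probe sets left out, with the brightest probe sets alone or with array weights. In 7 of the 9 every differentiating array lay below every undifferentiated one, against 12.8% of all genes. Pou5f1 itself read 11.39 to 11.53 in differentiating arrays, against 11.98 to 12.26 in undifferentiated arrays. Klf4 read 8.17, 6.24 and 5.50 in differentiating replicates 1, 2 and 3, against 10.87, 10.33 and 11.32 in undifferentiated replicates 1, 2 and 3. In the same order, Esrrb read 8.81, 7.25 and 5.45, against 11.25, 9.99 and 10.93. On differentiating replicate 3 both lay under the median of the array (5.56). Of the 9 markers, 8 had a log2 fold change below 0 and 1 above. Over all probe sets, undifferentiated replicate 1 correlated with undifferentiated replicates 2 and 3 at 0.974 and 0.979, while those 2 correlated with each other at 0.991. With the differentiating arrays, undifferentiated replicate 2 correlated at 0.984 to 0.986 and undifferentiated replicate 1 at 0.961 to 0.969. Tpbg, the gene of 5T4, read 6.71, 7.52 and 7.97 in differentiating replicates 1, 2 and 3, against 5.94, 6.76 and 5.68 in undifferentiated replicates 1, 2 and 3.

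ZIP proteins bring zinc, and some of them also iron, manganese or cadmium, into the cytosol, and ZnT proteins carry zinc out of the cytosol into vesicles or out of the cell. Metallothioneins are small cysteine-rich proteins that hold zinc and copper, and the zinc-sensing factor MTF-1 switches on their genes and Slc30a1 by binding metal response elements. Iron enters most dividing cells on transferrin through the transferrin receptor, passes from the endosome through the Slc11a2 product DMT1, and leaves through ferroportin, the product of Slc40a1.

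Metal response elements share a core of 7 bases, TGCACNC or TGCGCNC. The upstream stretches of Mt2, Mt1 and Slc30a1, the best known targets of MTF-1, and of Slc39a8, the member with the largest difference, are shown with every core in capitals. The 250 bases before the gene start are given 5′ to 3′ on the strand of the gene (RefSeq, build GRCm38.p6, plus strand for each), and a core on the other strand appears as its complement.
Mt2, chr8:94172368-94172617: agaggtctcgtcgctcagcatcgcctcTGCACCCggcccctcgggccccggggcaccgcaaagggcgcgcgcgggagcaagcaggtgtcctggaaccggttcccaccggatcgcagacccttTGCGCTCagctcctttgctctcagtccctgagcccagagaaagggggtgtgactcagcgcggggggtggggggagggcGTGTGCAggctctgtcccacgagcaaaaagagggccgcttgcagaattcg
Mt1, chr8:94178839-94179088: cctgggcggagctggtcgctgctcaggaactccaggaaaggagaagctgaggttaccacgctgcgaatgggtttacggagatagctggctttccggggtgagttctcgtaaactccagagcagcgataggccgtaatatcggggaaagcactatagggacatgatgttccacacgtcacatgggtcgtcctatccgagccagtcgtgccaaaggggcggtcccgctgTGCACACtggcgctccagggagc
Slc30a1, chr1:191906531-191906780: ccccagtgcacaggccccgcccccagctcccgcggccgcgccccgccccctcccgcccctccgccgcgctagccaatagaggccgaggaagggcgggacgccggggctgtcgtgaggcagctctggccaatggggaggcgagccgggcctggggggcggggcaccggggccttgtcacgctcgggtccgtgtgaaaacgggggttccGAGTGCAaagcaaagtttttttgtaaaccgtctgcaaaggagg
Slc39a8, chr3:135825407-135825656: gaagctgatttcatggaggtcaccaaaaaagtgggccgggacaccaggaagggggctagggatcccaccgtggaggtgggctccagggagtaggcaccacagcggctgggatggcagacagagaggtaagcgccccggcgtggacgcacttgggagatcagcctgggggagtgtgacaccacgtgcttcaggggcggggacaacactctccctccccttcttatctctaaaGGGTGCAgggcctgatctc

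Mt2 holds 3 cores in this window, and Mt1 and Slc30a1 hold 1 each. Slc39a8 has 2 RefSeq starts, and the window shown, that of the downstream start, holds 1 core. The window of its upstream start, not shown, holds 0. A window was found for 31 of the 37 members, some with several starts, and 18 of their 37 windows hold at least 1 core (48.6%). Of all 32851 windows of this length, 21.4% do. The windows follow the RefSeq gene starts, so cores beside another start of a gene are not counted. The start used for Mt1 may lie upstream of the one most used in cells, so its count may be too low. A match of letters is not a bound site.

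Of the 37 members, 1 was higher in differentiating cells and 0 were lower at an adjusted p under 0.1 (limma, Benjamini-Hochberg over all 45037 probe sets). Over all 18193 genes, 0.797% were higher and 1.45% lower by the same rule. At an unadjusted p under 0.05, 4 members were higher and 7 lower, where 7.60% and 9.60% of all genes were. In 4 members every differentiating array was above every undifferentiated one, and in 6 every differentiating array was below, against 10.7% and 12.8% of all genes. The median log2 fold change (differentiating minus undifferentiated) was -0.05 over the members and 0.02 over all genes. For 27 of the 37 members (73.0%, against 83.1% of all genes) the 95% interval of the log2 fold change lay between -1 and 1. A difference of more than 2-fold lies outside those intervals. With 3 arrays a side, the smallest two-sided p of an exact permutation test on a single gene is 0.1.

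**Figure D1:**
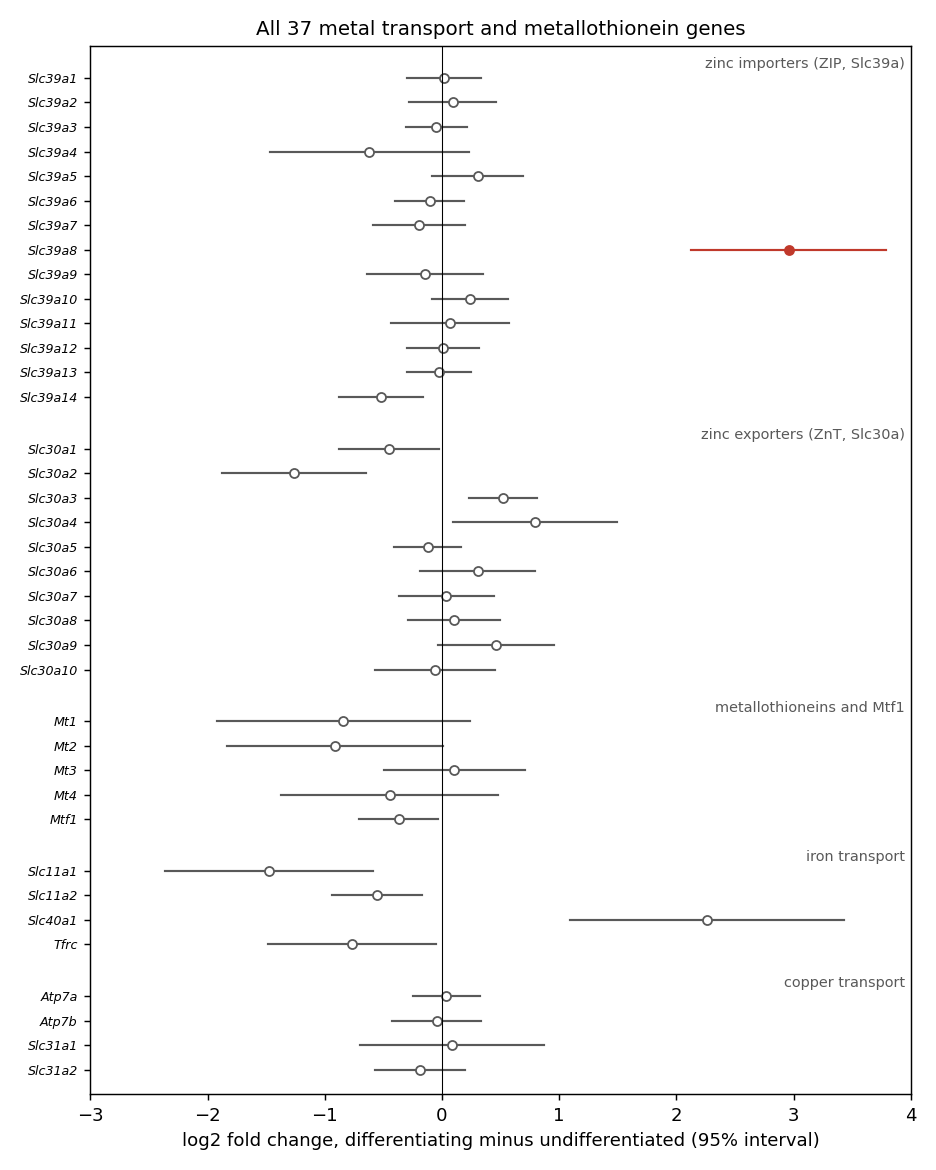
Each of the 37 members at its brightest probe set, grouped by role, with its log2 fold change, differentiating minus undifferentiated, on the horizontal axis and a line for the 95% interval from limma. The filled red point is the only member with an adjusted p under 0.1, Slc39a8 (2.96), and the next largest difference is that of Slc40a1 (2.26), whose interval reaches down to 1.09.

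Slc39a8, which encodes the zinc, manganese and iron importer ZIP8, was 7.78-fold higher in differentiating cells. It read 8.77, 8.90 and 9.06 in differentiating replicates 1, 2 and 3, against 5.18, 6.70 and 5.98 in undifferentiated replicates 1, 2 and 3. The differentiating arrays lay close together and at least 2 log2 units above every undifferentiated array, and the spread was in the undifferentiated group, lowest in replicate 1 and highest in replicate 2. The means were 8.91 ± 0.14 in differentiating and 5.95 ± 0.76 in undifferentiated cells (SD, n = 3 each), which is 2.96 apart on the log2 scale (standard error 0.35, 95% interval 2.13 to 3.79, limma adjusted p = 0.0432). Its second probe set read 6.98, 7.22 and 7.26 in differentiating replicates 1, 2 and 3, against 3.22, 4.66 and 4.68 in undifferentiated replicates 1, 2 and 3 (log2 fold change 2.97, adjusted p = 0.0503). The value of undifferentiated replicate 1 lies under the lower quartile of its array (4.10) and is not shown to be above background, so the size of the difference at this probe set is not secure.

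The log2 fold change of Slc39a8 was 3.33 without undifferentiated replicate 2 (adjusted p = 0.0200), 2.57 without undifferentiated replicate 1 (adjusted p = 0.0259) and 3.03 without differentiating replicate 1 (adjusted p = 0.0626). It kept its size but did not pass without differentiating replicate 2 (2.97, adjusted p = 0.264), differentiating replicate 3 (2.88, adjusted p = 0.220) or undifferentiated replicate 3 (2.97, adjusted p = 0.206). In those fits 0, 3 and 1 of the 45037 probe sets passed in all, although 4129, 4668 and 4245 had an unadjusted p under 0.05.

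**Figure D2:**
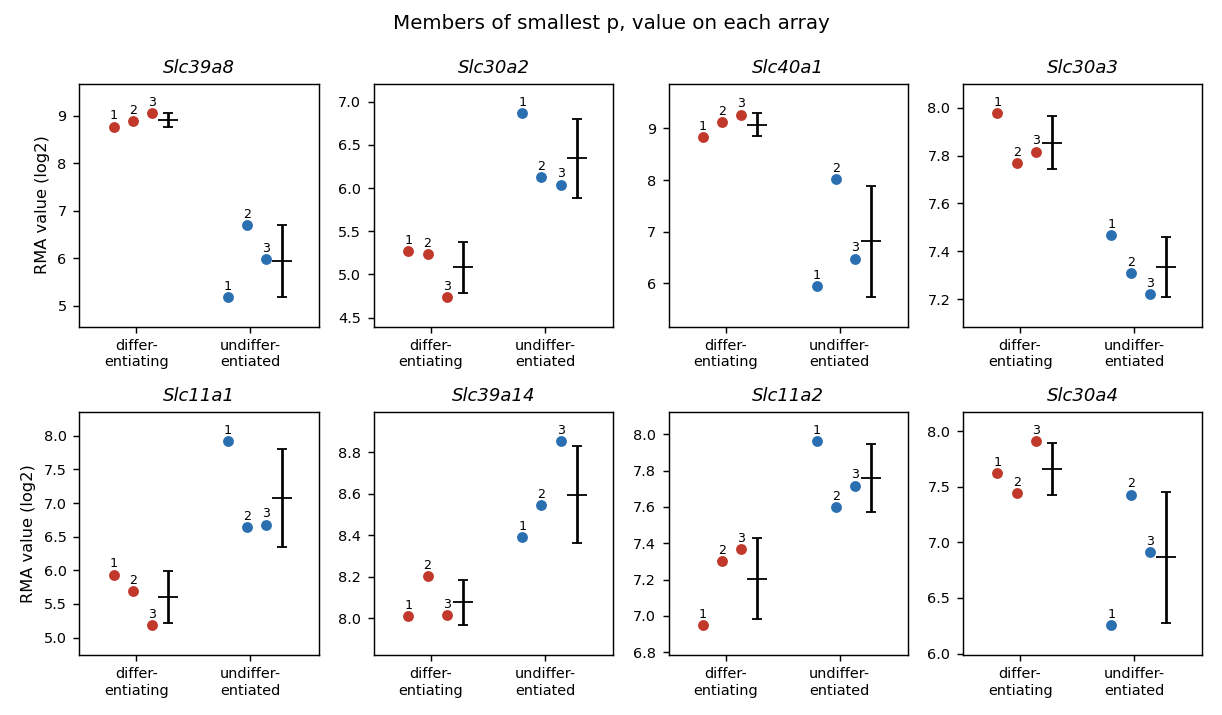
The 8 members of smallest p on each array, as RMA values on a log2 vertical axis that is scaled gene by gene, differentiating in red and undifferentiated in blue, with small numbers for the replicates and black lines for the mean and SD (n = 3). In all 8 panels the red and blue points lie apart, and they come closest for Slc30a4, where undifferentiated replicate 2 (7.43) lies just below differentiating replicate 2 (7.44).

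None of the other 13 ZIP genes passed the test, and their log2 fold changes lay between -0.62 and 0.30. Slc39a14, the closest relative of Slc39a8 and an importer of zinc, manganese and iron not bound to transferrin, read 8.01, 8.20 and 8.02 in differentiating replicates 1, 2 and 3, against 8.39, 8.54 and 8.85 in undifferentiated replicates 1, 2 and 3. Its groups did not overlap, and its difference of -0.52 (95% interval -0.88 to -0.16, adjusted p = 0.203) has the opposite sign to that of Slc39a8. Its 3 dimmer probe sets gave -0.22, -0.32 and -0.22, none of which passed.

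Slc39a4, the zinc uptake gene of the intestine, had the lowest value of the family, -0.62 (95% interval -1.47 to 0.23). That interval is wide because undifferentiated replicate 1 read 9.02 where the other undifferentiated arrays read 7.90 and 7.64. Slc39a10, a zinc importer of the plasma membrane, differed by 0.24 (95% interval -0.08 to 0.57). Slc39a6, which in zebrafish gastrulae acts downstream of STAT3 in cell movement, differed by -0.11 (95% interval -0.40 to 0.19). Slc39a7, which releases zinc from the endoplasmic reticulum and Golgi, differed by -0.19 (95% interval -0.59 to 0.20). Slc39a1, Slc39a3, Slc39a11 and Slc39a13 all lay within 0.07 of 0. The probe set of Slc39a12 ranks low by mean signal (percentile 9.05 among probe sets), and as the values come with no detection calls, its difference of 0.01 cannot be told from background.

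None of the 10 ZnT genes passed, and 2 were higher and 2 lower in every differentiating array, against 10.7% and 12.8% of all genes. Slc30a2, which loads zinc into vesicles and is known for zinc secretion into milk, came nearest to the threshold. It read 5.27, 5.23 and 4.74 in differentiating replicates 1, 2 and 3, against 6.87, 6.13 and 6.04 in undifferentiated replicates 1, 2 and 3. Every differentiating array lay below every undifferentiated one, and the log2 fold change was -1.26 (standard error 0.26, 95% interval -1.88 to -0.65, adjusted p = 0.106). It passed narrowly in fits without undifferentiated replicate 1 (adjusted p = 0.0988) and without undifferentiated replicate 2 (adjusted p = 0.0994), and where p-values were adjusted over the brightest probe set of each gene alone (adjusted p = 0.0767).

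Slc30a3, the transporter that fills synaptic vesicles with zinc, read 7.98, 7.77 and 7.82 in differentiating replicates 1, 2 and 3, against 7.47, 7.31 and 7.22 in undifferentiated replicates 1, 2 and 3. The groups were tight and apart, and the difference was 0.52 (95% interval 0.23 to 0.81, adjusted p = 0.139). Slc30a4, another vesicular zinc transporter, read 7.62, 7.44 and 7.91 in differentiating replicates 1, 2 and 3, against 6.25, 7.43 and 6.92 in undifferentiated replicates 1, 2 and 3. Undifferentiated replicate 2 was almost level with the lowest differentiating array, and the log2 fold change of 0.79 (adjusted p = 0.307) was 1.07 without it (adjusted p = 0.115) and 0.49 without undifferentiated replicate 1 (adjusted p = 0.371).

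Slc30a1, the plasma membrane zinc exporter and an MTF-1 target, read 7.94, 8.27 and 8.32 in differentiating replicates 1, 2 and 3, against 8.51, 8.43 and 8.94 in undifferentiated replicates 1, 2 and 3. The groups did not overlap, but by a small margin, with a difference of -0.45 (adjusted p = 0.338) that was the same, -0.45, at its second probe set (adjusted p = 0.296). The other ZnT genes had log2 fold changes between -0.12 and 0.46. Among them are Slc30a5, Slc30a6 and Slc30a7 of the secretory pathway, which differed by -0.12, 0.30 and 0.04. The probe set of Slc30a8, the zinc transporter of insulin granules, ranks low as well (percentile 17.4) and cannot be told from background.

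No metallothionein passed, and the arrays of Mt1 and Mt2 were spread widely within each group. Mt1 read 11.31, 10.45 and 9.80 in differentiating replicates 1, 2 and 3, against 12.05, 11.33 and 10.70 in undifferentiated replicates 1, 2 and 3. Mt2 read 12.78, 11.83 and 11.25 in differentiating replicates 1, 2 and 3, against 13.07, 13.10 and 12.43 in undifferentiated replicates 1, 2 and 3. For both genes replicate 1 was the highest differentiating array and replicate 3 the lowest array of each group, and differentiating replicate 1 overlapped the undifferentiated arrays.

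The log2 fold change of Mt1 was -0.84 (95% interval -1.92 to 0.24, adjusted p = 0.489), and that of Mt2 was -0.92 (95% interval -1.84 to 0.01, adjusted p = 0.368). Both intervals take in 0 and a difference larger than 2-fold. With each array left out in turn, Mt1 ranged from -1.24 (without differentiating replicate 1) to -0.48 (without differentiating replicate 3), and without undifferentiated replicate 1 it was -0.50. Mt2 ranged from -1.33 to -0.57 with the same 2 differentiating arrays left out, and neither gene passed in any of these fits. The dimmer probe set of Mt1 gave -0.38 (adjusted p = 0.462). Mt3, known from brain, and Mt4, known from stratified epithelium, differed by 0.11 and -0.45, and neither passed (adjusted p = 0.897 and 0.679). In replicates 2 and 3 of both groups Mt4 lay under the lower quartile of the array, so its difference cannot be told from background.

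Mtf1 read 6.87, 7.07 and 7.12 in differentiating replicates 1, 2 and 3, against 7.49, 7.17 and 7.50 in undifferentiated replicates 1, 2 and 3. The lowest undifferentiated array, replicate 2, stood just above the highest differentiating one. The log2 fold change was -0.37 (95% interval -0.70 to -0.03, adjusted p = 0.325), and the next brightest of its 5 probe sets gave -0.39 (adjusted p = 0.220). The 3 dimmer ones gave -0.15, -0.11 and 0.14 with overlapping groups, and the mean over all 5 gave -0.18 (adjusted p = 0.496). Mtf1, Mt1, Mt2 and Slc30a1 thus all had negative values at their brightest probe sets, and none of them passed. Of all 18193 genes, 8439 had a negative value too, and that of Mt3 was positive (0.11).

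**Figure D3:**
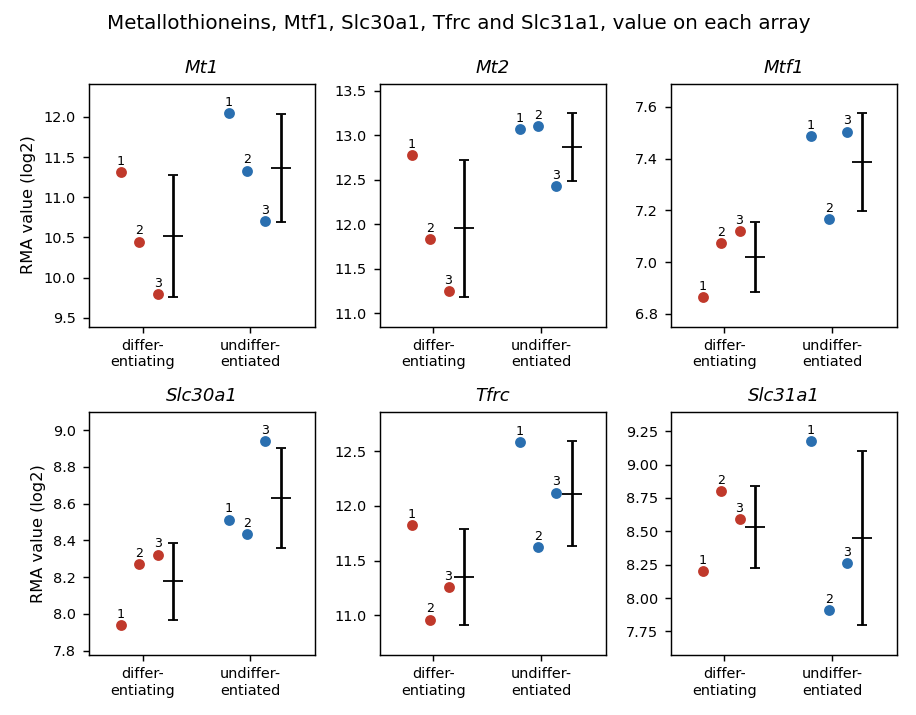
Mt1, Mt2, Mtf1, Slc30a1, Tfrc and Slc31a1 on each array, as RMA values on a log2 vertical axis that is scaled gene by gene, differentiating in red and undifferentiated in blue, with small numbers for the replicates and black lines for the mean and SD (n = 3). Differentiating replicate 1 is the highest of its group for Mt1 (11.31), Mt2 (12.78) and Tfrc (11.82) and the lowest for Mtf1 (6.87), Slc30a1 (7.94) and Slc31a1 (8.20).

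The 4 iron transport genes had an unadjusted p under 0.05 each, 1 of them higher and 3 lower in differentiating cells, and none passed after adjustment. Of all genes, 7.60% were higher and 9.60% lower at that unadjusted level. The largest difference was that of Slc40a1, the gene of ferroportin, the iron exporter of mammalian cells. It read 8.83, 9.12 and 9.27 in differentiating replicates 1, 2 and 3, against 5.94, 8.02 and 6.47 in undifferentiated replicates 1, 2 and 3. Every differentiating array lay above every undifferentiated one, and undifferentiated replicate 2 stood far above the other undifferentiated arrays.

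The means of Slc40a1 were 9.07 ± 0.23 in differentiating and 6.81 ± 1.08 in undifferentiated cells (SD, n = 3 each), which is 2.26 apart on the log2 scale (standard error 0.49, 95% interval 1.09 to 3.43, limma adjusted p = 0.119). Undifferentiated replicate 2 carried much of that spread. Without it the difference was 2.87 (adjusted p = 0.0200), and without any other single array it did not pass (adjusted p from 0.132 to 0.401), with its lowest value, 1.82, without undifferentiated replicate 1. Adjusted over the brightest probe set of each gene alone, it passed with all 6 arrays (adjusted p = 0.0858). The second Slc40a1 probe set repeated the pattern, with 8.47, 8.78 and 9.00 in differentiating replicates 1, 2 and 3, against 5.17, 7.66 and 5.71 in undifferentiated replicates 1, 2 and 3 (log2 fold change 2.57, adjusted p = 0.132).

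Tfrc, which brings transferrin-bound iron into the cell and whose mRNA is stabilised when iron is scarce, read 11.82, 10.96 and 11.25 in differentiating replicates 1, 2 and 3, against 12.59, 11.62 and 12.12 in undifferentiated replicates 1, 2 and 3. Only differentiating replicate 1 and undifferentiated replicate 2 overlapped, and the log2 fold change was -0.76 (95% interval -1.48 to -0.05, adjusted p = 0.334). It ranged from -1.01 without undifferentiated replicate 2 to -0.53 without undifferentiated replicate 1. Its dimmer probe sets gave larger values, -0.90 (adjusted p = 0.227) and -1.07 (95% interval -1.61 to -0.52, adjusted p = 0.116), and the groups did not overlap at the dimmest.

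Slc11a2, the gene of DMT1, read 6.95, 7.30 and 7.37 in differentiating replicates 1, 2 and 3, against 7.96, 7.60 and 7.72 in undifferentiated replicates 1, 2 and 3. All differentiating arrays were below all undifferentiated ones, and the difference was -0.55 (95% interval -0.94 to -0.17, adjusted p = 0.207). Its 3 other probe sets gave -0.29, 0.07 and -0.19 and did not pass, so the sign was not shared by all. Slc11a1, which encodes the NRAMP1 metal transporter known from macrophage phagosomes, read 5.94, 5.69 and 5.18 in differentiating replicates 1, 2 and 3, against 7.92, 6.64 and 6.68 in undifferentiated replicates 1, 2 and 3. The groups were apart, and undifferentiated replicate 1 was the highest array. The difference of -1.48 on the log2 scale (95% interval -2.36 to -0.59, adjusted p = 0.157) was -1.06 without undifferentiated replicate 1 (adjusted p = 0.118).

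**Figure D4:**
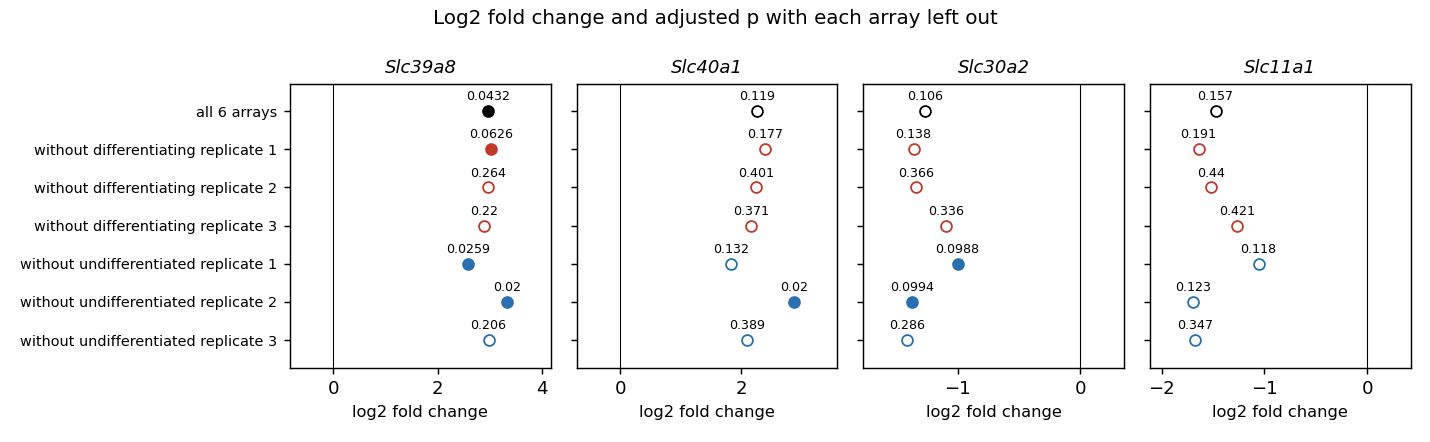
Slc39a8, Slc40a1, Slc30a2 and Slc11a1 by their log2 fold change, differentiating minus undifferentiated, on the horizontal axis, with all 6 arrays (black) and with each differentiating (red) or undifferentiated (blue) array left out. The numbers are adjusted p-values from limma over all probe sets, and filled points have an adjusted p under 0.1. No point crosses 0, and Slc40a1 is filled only without undifferentiated replicate 2.

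None of the 4 copper transport genes passed, and their log2 fold changes lay between -0.19 and 0.08. Slc31a1, the high-affinity copper importer CTR1, read 8.20, 8.80 and 8.59 in differentiating replicates 1, 2 and 3, against 9.17, 7.91 and 8.26 in undifferentiated replicates 1, 2 and 3. The differentiating values lay inside the range of the undifferentiated ones, and the log2 fold change was 0.08 (95% interval -0.70 to 0.87, adjusted p = 0.941). Atp7a, a copper pump of the Golgi and plasma membrane, read 8.56, 8.81 and 8.83 in differentiating replicates 1, 2 and 3, against 8.75, 8.70 and 8.63 in undifferentiated replicates 1, 2 and 3, and its log2 fold change was 0.04 (95% interval -0.25 to 0.33, adjusted p = 0.923). The groups of Atp7a overlapped. Atp7b and Slc31a2 differed by -0.05 and -0.19, and all 4 intervals lay between -1 and 1.

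The genes around these transporters were read from lists of iron, haem and copper genes. Of all genes, 7.60% were higher and 9.60% lower at an unadjusted p under 0.05. These shares also stand beside the counts of the later lists. None of 13 measured genes of iron storage, sensing and release passed, with 1 higher and 2 lower at an unadjusted p under 0.05 and a median log2 fold change of 0.08. The smallest adjusted p was that of Ncoa4, which carries ferritin to the lysosome for iron release, which differed by -0.49 (95% interval -0.74 to -0.24, adjusted p = 0.116). It read 9.98, 9.95 and 9.91 in differentiating arrays, against 10.52, 10.44 and 10.36 in undifferentiated arrays, so the groups did not overlap.

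None of 10 measured genes of transferrin iron uptake (0 higher and 1 lower at an unadjusted p under 0.05), 14 of mitochondrial iron and haem synthesis (0 and 1), 10 of the hepcidin pathway (2 and 2) and 15 copper chaperones and cuproenzymes (1 and 1) passed. The median log2 fold changes of these lists were -0.03, -0.13, 0.05 and 0.01. The smallest adjusted p-values in them were those of the haem and folate transporter gene Slc46a1 (-0.32, adjusted p = 0.348), of Alas1, the first enzyme of haem synthesis (-0.49, adjusted p = 0.278), of the BMP receptor gene Bmpr1a (0.56, adjusted p = 0.241) and of Ccs, the copper chaperone of superoxide dismutase (-0.57, adjusted p = 0.237).

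Metallothioneins also respond to cell stress, so genes of stress and dissociation were read beside them. Of 16 such genes 1 was lower and 0 were higher, with 2 higher and 3 lower at an unadjusted p under 0.05. The gene that passed was Hspb1, a small heat shock protein, with a log2 fold change of -0.91 (adjusted p = 0.0968). It read 12.48, 11.83 and 12.01 in differentiating arrays, against 13.06, 13.05 and 12.95 in undifferentiated arrays, and no gene of this list was lower by the test without differentiating replicate 2 or 3 or without any 1 of the undifferentiated arrays, nor where a log2 fold change of at least 1 was also asked. The mean value of the 16 genes lay between 8.54 and 8.70 in differentiating arrays, within the range of the undifferentiated arrays (8.43 to 8.90). That mean joins changes of both signs, with 8 log2 fold changes above 0 and 8 below. They ran from -0.96 for Hspa1b (adjusted p = 0.455) to 1.71 for Jun (adjusted p = 0.265), and neither gene passed. For 7 of the 16 (43.8%, against 83.1% of all genes) the interval lay within a 2-fold difference either way.

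Markers of other cell types were read beside Slc39a8 and Slc40a1. None of 13 primitive and visceral endoderm markers passed, with 3 higher and 0 lower at an unadjusted p under 0.05. Their mean value was 5.55 to 5.83 in differentiating arrays, against 5.24 to 5.43 in undifferentiated arrays. Of the 13, 11 had a log2 fold change above 0 (84.6%, against 53.6% of all genes). The count higher was 1 with any probe set counted, with the mean of all probe sets, or without differentiating replicate 1 or undifferentiated replicate 2. With array weights it was 3. The defining factors Gata4, Gata6, Sox17 and Foxa2 differed by -0.03, 0.07, 0.11 and 0.08. Their probe sets rank below the middle by mean signal (percentiles 38.7, 43.3, 45.6 and 33.2) and are not shown to be above background. The endocytic adaptor gene Dab2 read 7.89, 8.43 and 8.58 in differentiating replicates 1, 2 and 3, against 5.63, 7.45 and 5.94 in undifferentiated replicates 1, 2 and 3 (log2 fold change 1.96, adjusted p = 0.141). As with Slc40a1, undifferentiated replicate 2 was its highest undifferentiated array. Cubn, an endocytic receptor gene, read 4.75, 7.17 and 7.63 in differentiating arrays, against 4.30, 4.98 and 4.60 in undifferentiated arrays. Differentiating replicate 1 of Cubn lay inside the undifferentiated range, and the log2 fold change was 1.89 (adjusted p = 0.305). Pdgfra, a growth factor receptor gene, differed by 0.53 (adjusted p = 0.152).

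None of 10 fibroblast markers (2 higher and 0 lower at an unadjusted p under 0.05) and 8 blood and endothelial markers (0 and 1) passed. The fibroblast mean was 5.38 to 5.86 in differentiating arrays, against 5.12 to 5.54 in undifferentiated arrays. Its smallest adjusted p was that of Dcn, a matrix proteoglycan gene, which read 6.32, 6.67 and 6.76 in differentiating arrays, against 5.79, 6.05 and 5.94 in undifferentiated arrays (log2 fold change 0.66, adjusted p = 0.132). Col1a2, a collagen gene, read 9.34, 7.41 and 7.89 in differentiating replicates 1, 2 and 3, and 8.44 in undifferentiated replicate 2, against 5.55 and 6.51 in undifferentiated replicates 1 and 3. The blood and endothelial mean was 4.36 to 5.01 in differentiating arrays, against 4.87 to 5.04 in undifferentiated arrays, and its smallest adjusted p was that of the adhesion molecule gene Pecam1 (-1.93, adjusted p = 0.336). The part of cells of these types in the values of Slc39a8 and Slc40a1 was not tested.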

How the data were processed

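The authors processed the arrays with RMA from the affy library (version not given in the sources used here). Deposited are log2 values per probe set, background corrected and normalized between arrays, with no detection calls. They were used as deposited, with 6 columns matched to samples by accession. The 64 control probe sets of the array were removed, out of 45101. Genes were named from the platform annotation, and all 37 members matched a RefSeq gene (GRCm38.p6) by gene ID.

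Groups were compared with limma 3.58.1 (R 4.3.3, lmFit followed by eBayes, no block, Benjamini-Hochberg over 45037 probe sets), at an adjusted p under 0.1. The methods also ask for a log2 fold change of at least 1, which was run as an alternative. The steps were tested on simulated data, with the same spread on every array and changes of 1.5 to 4 on the log2 scale. That test does not cover smaller differences or arrays of unlike spread. The number of arrays limits the precision, and no depth applies.

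The members, gene lists and tests were chosen with earlier results of these data known. Values on every array are given for Slc39a8, the 8 members of smallest p, and Mt1, Mt2, Mtf1, Tfrc, Slc40a1, Slc30a1, Slc39a14, Slc31a1 and Atp7a. From each list up to 4 genes that pass, or the 1 of smallest adjusted p, are named. Tpbg, Nanog, Esrrb, Jun, Hspa1b, Pdgfra, Cubn, Col1a2 and the 4 endoderm factors were added after their values were seen. Alternatives covered the block, filters, normalization, variance, weights, thresholds, probe sets per gene and each array left out.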

Additional observations from a re-analysis of the deposited data

How the results depend on the processing

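The count of members higher in differentiating cells was 1 in the comparison as reported. It was 2 with the dimmer probe sets (mean under 5.59) left out and with the brightest probe set of each gene alone (Slc40a1 joined Slc39a8 in both), 3 with the mean of all probe sets of a gene (Slc30a3 joined them) and 4 with array weights. The count of lower members, 0 as reported, was 1 under median centring, the filter on dim probe sets, quantile normalization repeated, a robust trended variance, the mean of all probe sets and the brightest probe sets alone, in each case Slc30a2, and 6 with array weights, which passed 7174 of all probe sets against 720 without. With single arrays left out, 0 to 2 members were higher and 0 to 1 lower. Slc39a8 passed under every alternative except the loss of differentiating replicate 2, differentiating replicate 3 or undifferentiated replicate 3, with log2 fold changes of 2.57 to 3.33 over the single arrays left out.

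Atp7a, near 0 throughout, was -0.0034 with median centring, which lowers every gene alike, and -0.029 with the mean of its probe sets, and ranged from -0.0069 to 0.13 over the arrays left out, where Slc31a1 ranged from -0.19 to 0.45. The cause of the other changes was not tested.

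Whether the replicate numbers pair the arrays is not stated. The deviations of arrays 1, 2 and 3 from their group means correlated between the groups at 0.21, -0.11 and 0.11. Those of arrays with unlike numbers correlated at -0.31 to 0.32. With 3 arrays in each group these values cannot settle whether the arrays are paired. With the replicate block, 4 members were lower, Slc30a2 (adjusted p = 0.0784), Mt1 (0.0838), Slc11a1 (0.0866) and Tfrc (0.0981), and Slc39a8 alone was higher (0.0583). A low value could not be told from background on these arrays.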
